A study of Mus musculus with 8 samples.

Results

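Collagens are the main fibre- and network-forming proteins of the extracellular matrix, and every collagen chain is named by type and chain number. The collagen genes of glomerular mesangial cells (MMC) were taken as all gene entries whose symbol is Col, a type number, the letter a and a chain number. This gave 44 of the 24639 genes counted. Sorted by the kind of protein they encode, there were 11 fibrillar collagen genes, 6 type IV genes, 6 type VI genes, 9 fibril-associated genes, 4 transmembrane genes, 3 short-chain network genes, 2 endostatin-type genes (types XV and XVIII) and 3 others.

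WT MMC came from C57BL/6J mice, and miR-379KO MMC came from mice of that strain made homozygous, with CRISPR-Cas9 nickase, for a small deletion at miR-379. All cells were primary cultures in passages 5 to 7, grown in RPMI medium with 10% FBS and given no treatment. Gene counts were compared in total RNA and in RNA recovered with anti-AGO2 beads from UV cross-linked lysates (AGO2-IP), where AGO2 is the Argonaute protein that holds microRNAs on their targets. Each genotype had 2 libraries per assay, A and B, and the study calls its cell preparations independent, without naming the mice. In such bulk samples, fewer cells of a type and less RNA per cell cannot be told apart.

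The mesangium holds the capillary loops of the glomerulus together, and mesangial cells make its matrix. Type IV collagen is the network-forming collagen of mesangial matrix and of basement membranes, and fibrillar types I and III are known to accumulate in scarred glomeruli. Collagen chains fold as trimers in the endoplasmic reticulum, after hydroxylation of their prolines and lysines. They are then exported, trimmed at their ends and cross-linked outside the cell.

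Total RNA libraries held 17168230 to 22660743 gene counts and AGO2-IP libraries 5587611 to 17095021. The ribosomal precursor Rn45s and Lars2 took most AGO2-IP gene counts, which left 1115782 to 1875037 counts on other genes against 15524220 or more in total RNA. Of uniquely placed reads, 46.6% and 49.7% fell outside genes in the WT AGO2-IP libraries, and 73.4% and 76.4% in those of miR-379KO, compared with at most 8.81% in total RNA. The labelled cell type was checked with a marker list, of which Acta2, Tagln, Des and Pdgfrb had 1801 or more counts in each total RNA library, while Thy1 had 0 to 3, Itga8 7 to 38 and Gata3 33 to 70. Of podocyte markers, Nphs1 had at most 4 counts in a total RNA library, whereas Synpo had 3561 to 10980, Wt1 527 to 1566 and Podxl 301 to 575. The podocyte markers summed to 243 to 629 CPM, with both miR-379KO libraries between the WT libraries, and the 6 endothelial markers summed to 0.0587 to 2.17 CPM. The library WT total RNA B stood apart in Des, with 14442 counts against 1801 to 5000 in the other 3 total RNA libraries. Of tubular markers, Cdh16 had 368 counts in WT B and 304 in miR-379KO A, against 9 in WT A and 21 in miR-379KO B. Lrp2 had 472 counts in WT B and 298 in miR-379KO A, against 24 in WT A and 127 in miR-379KO B. Slc34a1 and Umod had 0 counts in each total RNA library, Epcam at most 2 and Cdh1 3 to 14. The part of these markers in the results below was not tested.

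Collagens were a large and measurable part of mesangial RNA. In total RNA they made up 2.36% and 1.77% of the gene counts outside Rn45s and Lars2 in WT A and WT B, compared with 1.59% and 1.73% in the miR-379KO libraries. The genotypes did not overlap, with a miR-379KO mean at 0.804 of the WT mean, and WT A and WT B lay further apart than the means did. Counting error was small at this depth, with a 95% Wilson interval of 2.35% to 2.37% for WT A, which covers counting error only. In AGO2-IP the same share was 5.71% and 5.79% in the WT libraries, compared with 3.96% and 3.16% in the miR-379KO libraries, so that the lower WT value lay above the higher miR-379KO value. Taken over all gene counts, Rn45s and Lars2 included, the AGO2-IP share overlapped between the genotypes, with 0.626% and 0.970% for WT against 0.792% and 0.632%. The exact two-sided permutation p-value of each comparison outside Rn45s and Lars2 was 0.333, the smallest that 2 against 2 libraries allow.

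Levels between genes were compared as counts scaled to effective library size (CPM) per kilobase of exon. In these units Col1a1, the main chain of type I collagen, and Col4a1, a chain of the common type IV trimer, led in total RNA. Col1a1 averaged 911 ± 91.5 CPM per kb in WT and 685 ± 298 in miR-379KO (SD, n = 2), and Col4a1 728 ± 232 and 611 ± 108. Col4a2, its partner, followed at 438 ± 113 and 384 ± 42.3 CPM per kb. Over the 4 libraries the values of Col1a1 and Col4a1 overlapped, and those of Col4a1 and Col4a2 did not. Col5a1, a chain of the type V collagen that nucleates fibrils, ranged from 139 to 209 CPM per kb over the 4 libraries. Col3a1, which forms type III collagen, ranged from 53.8 to 98.4 CPM per kb. The orders of Col1a1 and Col4a1 differed between libraries, since Col4a1 was higher in WT A and miR-379KO A and Col1a1 in both B libraries. Type VI collagen, a beaded filament found around cells, was present mainly as Col6a1, with 14.2 to 26.4 CPM per kb.

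**Figure D1:**
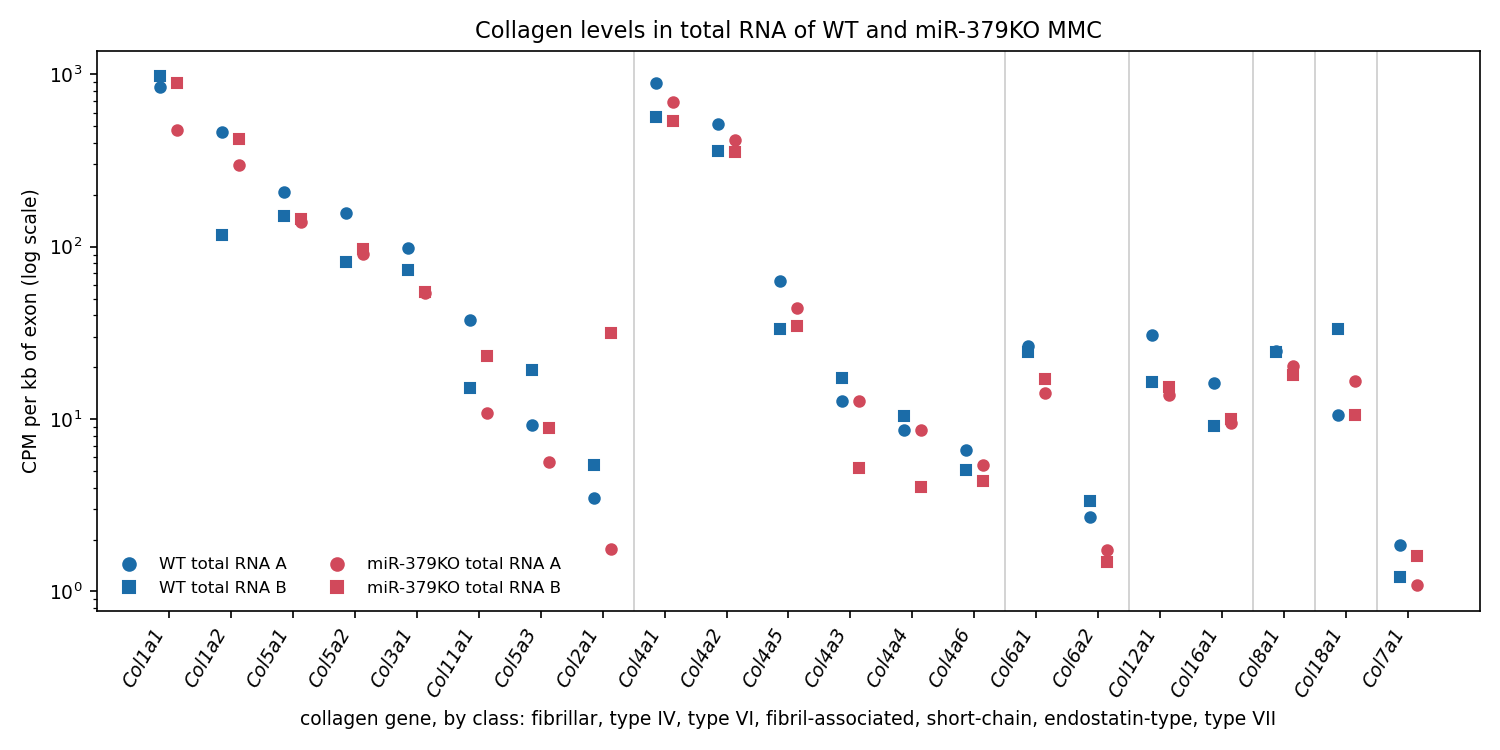
Levels of the 21 collagens with a mean of at least 10 CPM in total RNA, in CPM per kb of exon on a log axis, with a point for each of the 4 total RNA libraries. Col1a1 and Col4a1 lie between 474 and 976 CPM per kb, and WT B falls away from the other 3 libraries for Col1a2.

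Collagen mRNAs are textbook targets of the miR-29 family, so the matches to miRNA bases 2 to 8 (the seed, in capitals in the miRNAs) in annotated 3′-UTRs are shown beside those of miR-379. The members of the miR-29 family share a seed, and miR-379-5p has another.

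miR-29a-3p: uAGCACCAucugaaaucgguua
miR-29b-3p: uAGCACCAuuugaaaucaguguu
miR-29c-3p: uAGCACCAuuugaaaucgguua
miR-379-5p: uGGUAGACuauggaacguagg

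In RefSeq 3′-UTRs of GRCm38.p6, the letters TGGTGCT (miR-29, searched on the mRNA strand) were found in 26 of 44 collagen genes, at 45 positions, and in 12.1% of the 19168 genes with a 3′-UTR. The collagen 3′-UTRs were somewhat longer, with a median of 990.0 bases against 826.5. All 6 type IV genes held a match, among them Col4a3 with 4, Col4a5 with 3 and Col4a2 with 2. Among fibrillar genes Col5a1 held 4, Col5a3 held 3, and Col1a1 and Col3a1 held 1 each, while Col1a2 held none in its annotated 3′-UTR. The letters GTCTACC (miR-379-5p) were found in 4.05% of all genes and in 1 collagen gene, Col11a1. The sites of Col1a1, Col3a1, Col4a1 and Col4a2, chains of the matrix collagens I, III and IV introduced above, and the miR-379 site of Col11a1 are printed on the mRNA strand, with the seed match in capitals. A match is a description of letters and not a measured binding site.

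Col1a1, chr11:94952525-94952546, plus strand: gggaaggaatttcTGGTGCTat
Col4a1, chr8:11199760-11199781, minus strand: caccgtcacaacaTGGTGCTac
Col4a2, chr8:11448346-11448367, plus strand: gggaaggccacgtTGGTGCTta
Col4a2, chr8:11448517-11448538, plus strand: accacacccagctTGGTGCTta
Col3a1, chr1:45348969-45348990, plus strand: caaaatgtctcaaTGGTGCTat
Col11a1, chr3:114220304-114220325, plus strand: taaatcaagtcttGTCTACCtg

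The first comparison asked which collagen RNAs changed in level without miR-379. In total RNA, 29 of the 44 collagens passed the filter on low counts. None passed the adjusted threshold in edgeR, as was the case for all 12321 genes tested (0% called), and 0 collagens passed with DESeq2 or voom. The edgeR adjusted p-value, by the Benjamini-Hochberg method, was 0.9997 for each collagen tested in total RNA and is not repeated below. The fitted change was below 0 for 23 of the 29 collagens, with a median of −0.36 on the log2 scale against −0.01 for all genes. At the cutoff the study used, 1.5-fold with an unadjusted p-value under 0.05, 4 collagens were counted as lower and 0 as higher, where 0.682% of all genes were counted. These were Col6a2, Col6a1, Col15a1 and Col3a1, and they were also the only collagens with an unadjusted p-value under 0.05. Without WT A the median was −0.09, and over the other omissions of a library it lay between −0.39 and −0.48.

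The type VI genes had the smallest p-values. Col6a1 stood at 105 CPM in WT A, 97.3 in WT B, 56.6 in miR-379KO A and 68.1 in miR-379KO B (total RNA, log2 change −0.70, SE 0.21, unadjusted edgeR p-value 0.0158). Col6a2, the partner chain, stood at 16.2 CPM in WT A, 20.03 in WT B, 10.4 in miR-379KO A and 8.93 in miR-379KO B (log2 change −0.90, SE 0.25, unadjusted edgeR p-value 0.0114). For both genes the WT libraries lay above the miR-379KO libraries. Col15a1, which encodes the type XV basement membrane-zone collagen, had 111 counts in WT A, 115 in WT B, 92 in miR-379KO A and 36 in miR-379KO B (log2 change −1.07, SE 0.41, unadjusted edgeR p-value 0.0377). The summed share of type VI genes in total RNA was 0.0135% and 0.0132% for WT, compared with 0.00746% and 0.00862% for miR-379KO. The other type VI chains were near the limit of detection in total RNA, where Col6a3 had 9 to 96 counts, Col6a4 11 to 43, and Col6a5 and Col6a6 0 in each library.

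Values of 9 of the 29 collagens were lower in both miR-379KO than in both WT libraries, against 9.07% of all genes, and 0 were higher in both, against 1219 of the 12321 genes. These 9 were Col3a1, Col5a1, Col5a3, Col27a1, Col6a1, Col6a2, Col12a1, Col8a1 and Col15a1.

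Among fibrillar collagens, Col1a1 stood at 5020.4 CPM in WT A, 5787 in WT B, 2811 in miR-379KO A and 5314 in miR-379KO B in total RNA, and the genotypes overlapped (log2 change −0.41, SE 0.38). Its partner chain Col1a2 stood at 2432 CPM in WT A, 609 in WT B, 1557 in miR-379KO A and 2196 in miR-379KO B (log2 change 0.30, SE 0.62). The low library was WT B, and WT A lay above both miR-379KO libraries. Without WT B its fold change was −0.37 on the log2 scale, and without WT A it was 1.63. Col3a1 stood at 548 CPM in WT A, 406 in WT B, 299 in miR-379KO A and 303 in miR-379KO B, so the genotypes did not overlap (log2 change −0.66, SE 0.26, unadjusted edgeR p-value 0.0401). Col5a1 stood at 1757 CPM in WT A, 1265 in WT B, 1167 in miR-379KO A and 1209.7 in miR-379KO B (log2 change −0.35, SE 0.29), and Col5a2, which joins it in type V collagen, at 1039 CPM in WT A, 541 in WT B, 600.3 in miR-379KO A and 639.7 in miR-379KO B (log2 change −0.35, SE 0.36). Col5a1 was lower in both miR-379KO libraries, whereas Col5a2 overlapped. Col11a1, a minor fibril chain and the collagen with a miR-379 seed match, stood at 288 CPM in WT A, 117 in WT B, 83.5 in miR-379KO A and 178 in miR-379KO B (log2 change −0.63, SE 0.52), with overlap. Col5a3 stood at 56.2 CPM in WT A, 117 in WT B, 34.4 in miR-379KO A and 54.04 in miR-379KO B (log2 change −0.97, SE 0.41). Col2a1, the cartilage fibril collagen, was driven by a single library, at 17.8 CPM in WT A, 27.7 in WT B, 9.001 in miR-379KO A and 162 in miR-379KO B (log2 change 1.91, SE 1.19).

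Type IV collagen genes lie in head-to-head pairs, and the chains of a pair are known to be made together. Col4a1 (GRCm38.p6, chromosome 8, 11198423 to 11312889, minus strand) and Col4a2 (chromosome 8, 11312805 to 11449287, plus strand) overlap at their starts and were kept apart by strand in the counting. Col4a1 stood at 5917 CPM in WT A, 3739.7 in WT B, 4557 in miR-379KO A and 3546 in miR-379KO B in total RNA (log2 change −0.25, SE 0.35), and Col4a2 at 3343 CPM in WT A, 2313 in WT B, 2669.6 in miR-379KO A and 2283 in miR-379KO B (log2 change −0.19, SE 0.31). Both genes overlapped between genotypes. The ratio of Col4a1 to Col4a2 per kb was the steadiest of the chain ratios computed, from 1.51 to 1.72 over the 4 total RNA libraries and from 1.53 to 1.66 over the 4 AGO2-IP libraries.

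The chains Col4a3, Col4a4 and Col4a5 form the trimer of the mature glomerular basement membrane. Col4a3 stood at 109.9 CPM in WT A, 148 in WT B, 109.9 in miR-379KO A and 44.6 in miR-379KO B (log2 change −0.74, SE 0.43), and Col4a4, its neighbour on chromosome 1, at 67.1 CPM in WT A, 80.9 in WT B, 67.4 in miR-379KO A and 31.5 in miR-379KO B (log2 change −0.58, SE 0.37). In both genes miR-379KO B was the low library, and the other 3 lay close together. Col4a5 stood at 414 CPM in WT A, 217 in WT B, 287 in miR-379KO A and 225 in miR-379KO B (log2 change −0.30, SE 0.35), and its X-linked neighbour Col4a6 at 43.8 CPM in WT A, 33.6 in WT B, 35.8 in miR-379KO A and 29.1 in miR-379KO B (log2 change −0.25, SE 0.25). All 6 type IV genes had a fitted change below 0, from −0.74 to −0.19, and none passed the test.

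The remaining collagens above 10 CPM did not pass either. Col12a1, a fibril-associated collagen, stood at 361 CPM in WT A, 192 in WT B, 162 in miR-379KO A and 179.9 in miR-379KO B in total RNA (log2 change −0.69, SE 0.33), and Col16a1, another of that class, at 84.5 CPM in WT A, 47.3 in WT B, 49.5 in miR-379KO A and 52.4 in miR-379KO B (log2 change −0.37, SE 0.31). Col8a1, a short-chain network collagen, stood at 126 CPM in WT A, 125 in WT B, 104 in miR-379KO A and 92.1 in miR-379KO B (log2 change −0.36, SE 0.20). Col12a1 and Col8a1 were lower in both miR-379KO libraries, and Col16a1 overlapped. Col18a1, the type XVIII collagen whose end fragment is endostatin, stood at 61.3 CPM in WT A, 192 in WT B, 96.6 in miR-379KO A and 60.9 in miR-379KO B (log2 change −0.69, SE 0.54), with WT B as the high library. Col7a1, the anchoring fibril collagen, stood at 17.2 CPM in WT A, 11.2 in WT B, 10.04 in miR-379KO A and 14.8 in miR-379KO B (log2 change −0.19, SE 0.33).

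The second comparison asked how collagen RNA recovered with AGO2 differed between the genotypes. In AGO2-IP, 42 of the 44 collagens were tested, and Col26a1 and Col8a2 did not pass the filter. The filter scales its minimum count to library size. The WT libraries were larger, at 17095021 and 9586299 gene counts against 6545652 and 5587611 in miR-379KO. A scarce gene could thus be tested on its miR-379KO counts alone, which favours a change above 0. The collagens split by their total RNA level. Abundant collagens, among them Col1a1, Col4a1 and Col4a2, were called lower in miR-379KO AGO2-IP, and collagens with few or no total RNA counts were called higher. Of the 42, 19 passed the adjusted threshold of edgeR, 11 higher and 8 lower, while 30.9% of all genes passed, 21.4% higher and 9.52% lower. With TMM factors from genes expressed in total RNA, under which the median over all genes went from −0.01 to 0.16, the split was 13 higher and 4 lower. With an offset fitted on GC content and exon length it was 14 higher and 3 lower (Col16a1, Col12a1 and Col11a1), so that Col1a1, Col3a1, Col4a1, Col4a2, Col5a1 and Col5a3 were no longer called, and DESeq2 gave 4 higher and 7 lower. At the cutoff of the study 24 collagens and 39.4% of all genes were counted. Ranges did not overlap for 17 collagens that were higher and 12 that were lower, against 36.1% and 32.2% of all genes.

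**Figure D2:**
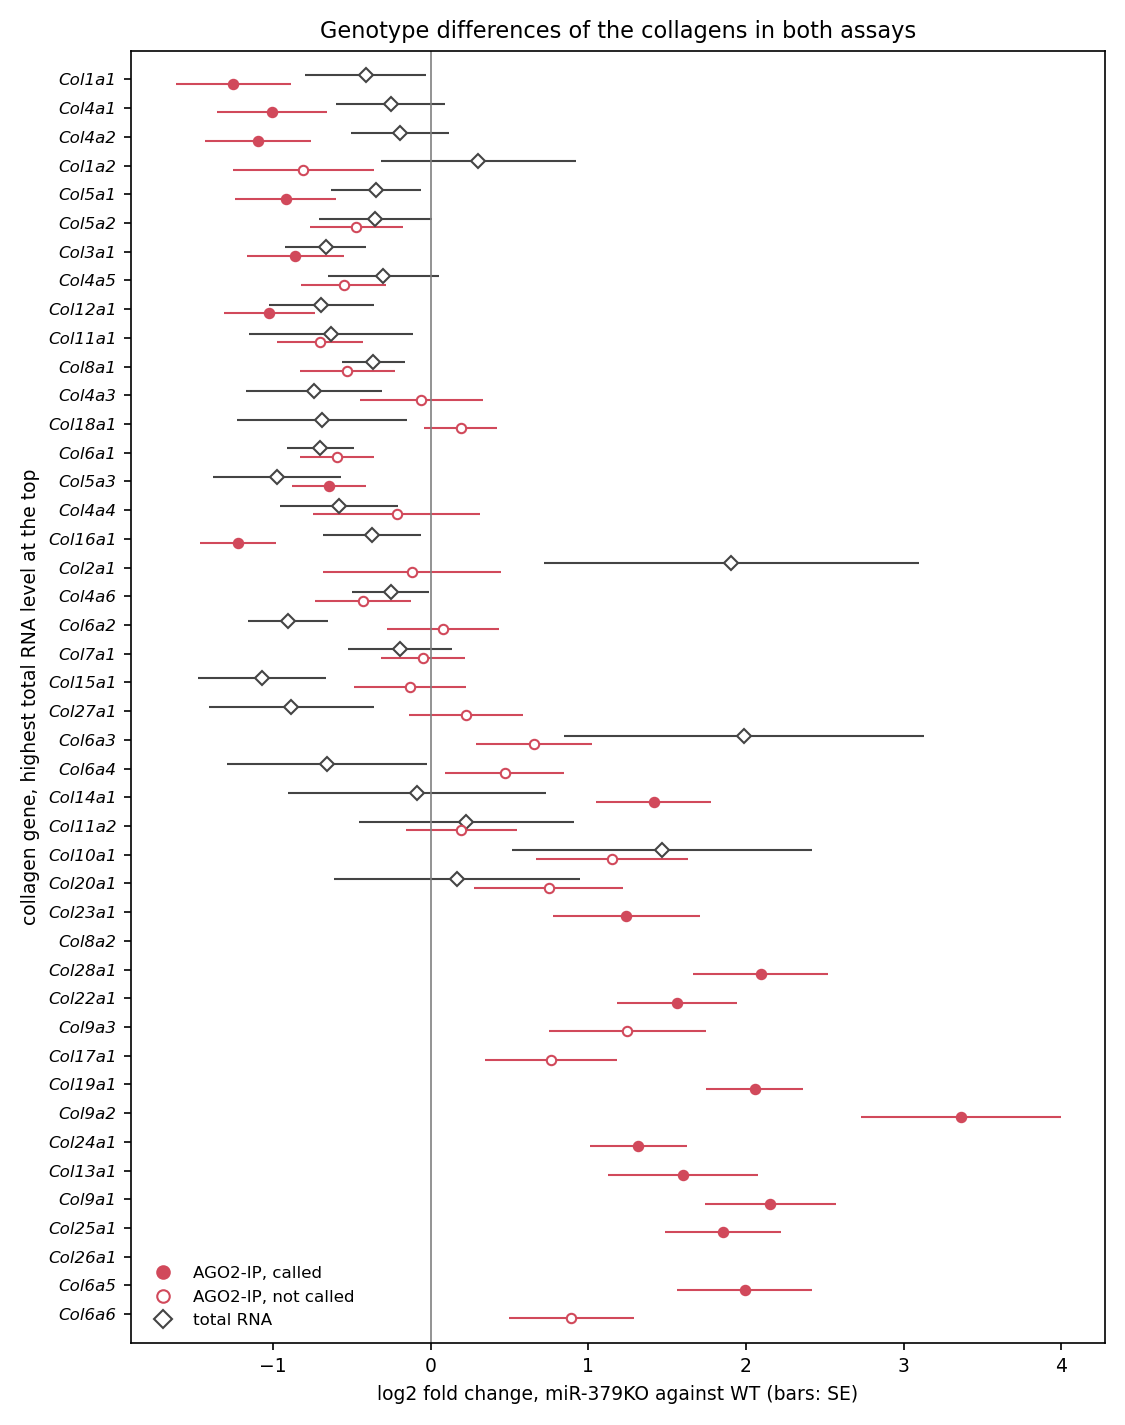
Log2 fold changes of miR-379KO against WT with their SE for each collagen tested, in total RNA (diamonds) and AGO2-IP (circles, filled where called), ordered by total RNA level. In total RNA 0 were called, and in AGO2-IP 8 abundant collagens lie to the left of 0 and 11 scarce ones to the right as called.

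Of the called fibrillar collagens, Col1a1 fell the most. It stood at 3409.6 CPM in WT A, 4852 in WT B, 1946 in miR-379KO A and 1528 in miR-379KO B in AGO2-IP (log2 change −1.25, SE 0.37, edgeR adjusted p-value 0.0132), and the lower WT value was above both miR-379KO values. Col5a1 stood at 866 CPM in WT A, 1046 in WT B, 531 in miR-379KO A and 481 in miR-379KO B (log2 change −0.92, SE 0.32, edgeR adjusted p-value 0.0327), and Col3a1 at 279 CPM in WT A, 319 in WT B, 207 in miR-379KO A and 124 in miR-379KO B (log2 change −0.86, SE 0.31, edgeR adjusted p-value 0.0364). Col5a3 stood at 25.4 CPM in WT A, 36.9 in WT B, 19.5 in miR-379KO A and 20.3 in miR-379KO B (log2 change −0.64, SE 0.24, edgeR adjusted p-value 0.0416). In all 4 the genotypes were separate. The other fibrillar collagens above 1000 total RNA counts did not pass. Col1a2 stood at 1267 CPM in WT A, 474 in WT B, 667 in miR-379KO A and 329 in miR-379KO B (log2 change −0.81, SE 0.45, edgeR adjusted p-value 0.186), where WT B, again the low WT library, lay between the miR-379KO values. Col5a2 stood at 417 CPM in WT A, 376 in WT B, 294 in miR-379KO A and 279 in miR-379KO B (log2 change −0.47, SE 0.30, edgeR adjusted p-value 0.231), and Col11a1 at 123 CPM in WT A, 150.2 in WT B, 93.9 in miR-379KO A and 73.7 in miR-379KO B (log2 change −0.70, SE 0.27, edgeR adjusted p-value 0.0516). Both were separate between the genotypes without a call. Col2a1 stood at 5.39 CPM in WT A, 18.2 in WT B, 10.4 in miR-379KO A and 10.99 in miR-379KO B (log2 change −0.12, SE 0.57, edgeR adjusted p-value 0.898), and the single high library of total RNA, miR-379KO B, was not high here.

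Both chains of the common type IV trimer fell in AGO2-IP. Col4a1 stood at 2146 CPM in WT A, 1805 in WT B, 1164 in miR-379KO A and 804 in miR-379KO B (log2 change −1.01, SE 0.35, edgeR adjusted p-value 0.0306), and Col4a2 at 1347 CPM in WT A, 1148 in WT B, 699 in miR-379KO A and 471 in miR-379KO B (log2 change −1.09, SE 0.34, edgeR adjusted p-value 0.0173). The genotypes were separate for each. The glomerular basement membrane chains did not pass. Col4a3 stood at 30.1 CPM in WT A, 15.1 in WT B, 29.2 in miR-379KO A and 14.3 in miR-379KO B (log2 change −0.06, SE 0.39, edgeR adjusted p-value 0.925), Col4a4 at 28.2 CPM in WT A, 9.94 in WT B, 20.5 in miR-379KO A and 12.5 in miR-379KO B (log2 change −0.22, SE 0.53, edgeR adjusted p-value 0.796). In both genes the A library was above the B library in either genotype. Col4a5 stood at 142 CPM in WT A, 115 in WT B, 92.3 in miR-379KO A and 82.8 in miR-379KO B (log2 change −0.55, SE 0.27, edgeR adjusted p-value 0.118), and Col4a6 at 17.3 CPM in WT A, 12.1 in WT B, 14.9 in miR-379KO A and 6.899 in miR-379KO B (log2 change −0.43, SE 0.31, edgeR adjusted p-value 0.308). Col4a5 was separate between the genotypes, and Col4a6 overlapped. The type IV share of gene counts outside Rn45s and Lars2 in AGO2-IP was 2.02% and 1.67% for WT, compared with 1.32% and 0.976% for miR-379KO, and that of fibrillar genes 3.48% and 3.92% against 2.47% and 2.01%. Over all gene counts both overlapped between the genotypes, with type IV shares of 0.221% and 0.280% for WT against 0.263% and 0.195%, and fibrillar shares of 0.382% and 0.657% against 0.493% and 0.401%.

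**Figure D3:**
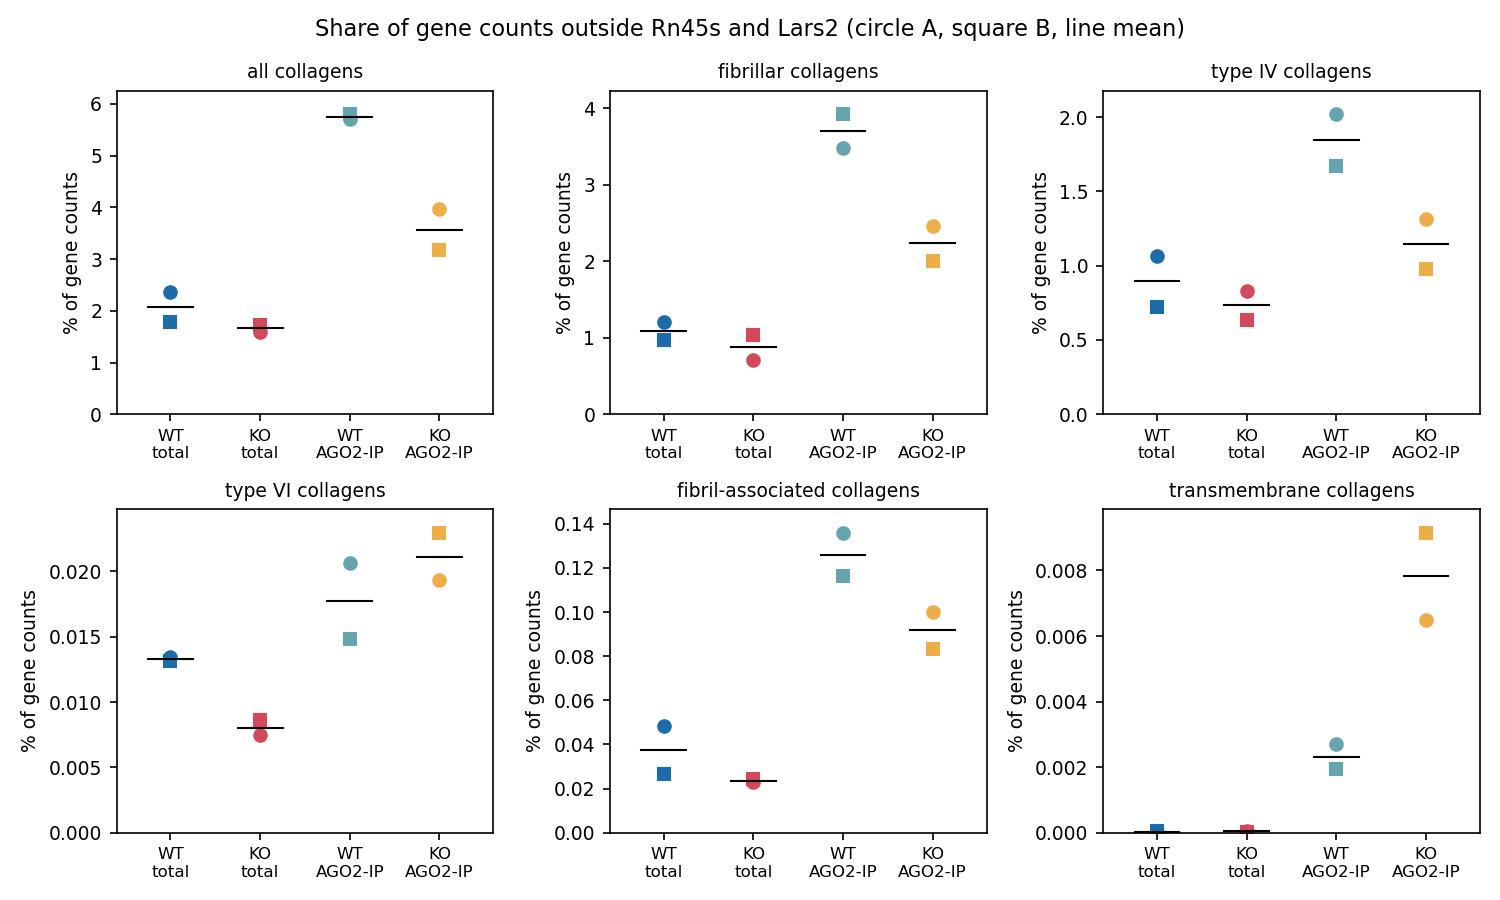
Share of gene counts outside Rn45s and Lars2 taken by collagen classes in each library, with circles for A, squares for B and a line for the mean of 2. Fibrillar and type IV shares are highest in WT AGO2-IP, at 3.48% to 3.92% and 1.67% to 2.02%, and the transmembrane share is highest in miR-379KO AGO2-IP.

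The fibril-associated collagens went both ways. Col16a1 stood at 43.2 CPM in WT A, 30.3 in WT B, 17.4 in miR-379KO A and 14.2 in miR-379KO B in AGO2-IP (log2 change −1.22, SE 0.24, edgeR adjusted p-value 0.00111), and it was called lower in all 16 alternatives run. Col12a1 stood at 197 CPM in WT A, 177 in WT B, 112 in miR-379KO A and 71.9 in miR-379KO B (log2 change −1.02, SE 0.29, edgeR adjusted p-value 0.0105). Both were well expressed in total RNA and separate between genotypes. Members of this class called higher were Col9a1, Col9a2, Col14a1, Col19a1 and Col22a1. None of them reached the filter's minimum in both WT libraries, so they were tested through their miR-379KO counts. Col19a1 had 16 counts in WT A, 24 in WT B, 77 in miR-379KO A and 69 in miR-379KO B in AGO2-IP (log2 change 2.05, SE 0.31, edgeR adjusted p-value 0.000157). Col9a1, a chain of cartilage type IX collagen, had 9 counts in WT A, 9 in WT B, 26 in miR-379KO A and 44 in miR-379KO B (log2 change 2.15, SE 0.41, edgeR adjusted p-value 0.000877), and Col9a2 had 1 count in WT A, 1 in WT B, 9 in miR-379KO A and 11 in miR-379KO B (edgeR adjusted p-value 0.000737). With 2 counts of Col9a2 in WT, the ratio of the group sums was 10.4 with an exact 95% counting interval of 2.53 to 91.9. Col14a1 and Col22a1 rose by 1.41 ± 0.36 and 1.56 ± 0.38 on the log2 scale (SE, edgeR adjusted p-values 0.00603 and 0.00419). All of these rest on at most 77 counts per library.

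Of the 4 transmembrane collagens, 3 were called higher in AGO2-IP, and none of the 4 reached the filter's minimum in both WT libraries. Among tested genes with at most 5 counts in every total RNA library, 81.8% were called higher, under the same selection. Col23a1 exceeded that level, with 3 to 9 counts. Col25a1, a neuronal transmembrane collagen, had 12 counts in WT A, 13 in WT B, 34 in miR-379KO A and 45 in miR-379KO B (log2 change 1.86, SE 0.37, edgeR adjusted p-value 0.00105). Col13a1 had 7 counts in WT A, 5 in WT B, 15 in miR-379KO A and 17 in miR-379KO B (log2 change 1.60, SE 0.47, edgeR adjusted p-value 0.0137), and Col23a1 12 counts in WT A, 5 in WT B, 17 in miR-379KO A and 18 in miR-379KO B (log2 change 1.24, SE 0.46, edgeR adjusted p-value 0.0447). Col17a1, the hemidesmosome collagen of epithelia, had 20 counts in WT A, 8 in WT B, 19 in miR-379KO A and 22 in miR-379KO B (log2 change 0.76, SE 0.42, edgeR adjusted p-value 0.169). Also called higher were Col28a1 with 13 counts in WT A, 7 in WT B, 25 in miR-379KO A and 49 in miR-379KO B (log2 change 2.09, SE 0.43, edgeR adjusted p-value 0.00148), Col6a5 with 6 counts in WT A, 10 in WT B, 26 in miR-379KO A and 30 in miR-379KO B (log2 change 1.99, SE 0.43, edgeR adjusted p-value 0.00189) and the scarce fibrillar gene Col24a1 with 24 counts in WT A, 24 in WT B, 46 in miR-379KO A and 58 in miR-379KO B (log2 change 1.32, SE 0.31, edgeR adjusted p-value 0.00306). All 3 were higher in both miR-379KO libraries, and of them only Col24a1 reached the filter's minimum in both WT libraries. For type VI genes with total RNA, Col6a1 stood at 26.5 CPM in WT A, 19.2 in WT B, 16.8 in miR-379KO A and 13.5 in miR-379KO B in AGO2-IP (log2 change −0.59, SE 0.23, edgeR adjusted p-value 0.0557) and Col6a2 at 4.804 CPM in WT A, 2.54 in WT B, 2.82 in miR-379KO A and 5.11 in miR-379KO B (log2 change 0.08, SE 0.36, edgeR adjusted p-value 0.886). Neither passed, and only Col6a1 was separate between the genotypes.

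Of the other collagens above 10 CPM in total RNA, none passed in AGO2-IP. Col8a1 stood at 39.6 CPM in WT A, 85.7 in WT B, 43.1 in miR-379KO A and 43.7 in miR-379KO B in AGO2-IP (log2 change −0.53, SE 0.30, edgeR adjusted p-value 0.19). Col18a1 stood at 16.5 CPM in WT A, 23.1 in WT B, 24.8 in miR-379KO A and 20.3 in miR-379KO B (log2 change 0.19, SE 0.23, edgeR adjusted p-value 0.556), and Col7a1 at 15.98 CPM in WT A, 9.597 in WT B, 9.74 in miR-379KO A and 15.2 in miR-379KO B (log2 change −0.05, SE 0.27, edgeR adjusted p-value 0.908). All 3 overlapped between the genotypes. The collagens not named in this comparison, Col27a1, Col11a2, Col15a1, Col6a3, Col6a4, Col6a6, Col9a3, Col10a1 and Col20a1, had fitted changes of −0.13 to 1.25 without a call.

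Genes differed in AGO2-IP between genotypes by their level in total RNA, and the collagens were read against genes of like level. Among the 17 collagens that averaged over 1000 total RNA counts, 16 had a change below 0 and 8 were called lower, with a median of −0.70. Of all 3651 genes of that level tested, 3305 had a change below 0 and 26.4% were called lower, with a median of −0.45. Genes over 10000 counts had a median change of −0.67 with quartiles of −0.87 and −0.48, and of the 6 collagens in that bin Col1a1, Col4a2, Col4a1 and Col5a1 were beneath the lower quartile, Col1a2 was at −0.81 and Col5a2 at −0.47. Col18a1 and Col4a3, at 0.19 and −0.06, lay above the upper quartile of −0.16 of genes with 1000 to 3000 counts, whose median was −0.39, and Col16a1, Col11a1 and Col5a3, at −1.22, −0.70 and −0.64, lay below the lower quartile of −0.61. The share of reads outside genes, which was higher in both miR-379KO AGO2-IP libraries, moved with these differences, and its part in them was not tested.

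Among collagens with at most 5 counts in every total RNA library, 10 of 11 were tested, 10 had a change above 0 and 7 were called higher, with a median of 1.73. Of these, only Col24a1 reached the filter's minimum in both WT AGO2-IP libraries. A change above 0 was therefore favoured in advance, and these calls are no independent evidence of a rise. Of all 11171 genes at that level 2077 passed the filter, under the same selection. Of those 2077, 81.8% were called higher, with a median of 1.82. Both the share called and the median of these collagens were slightly under those of the genes at that level.

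**Figure D4:**
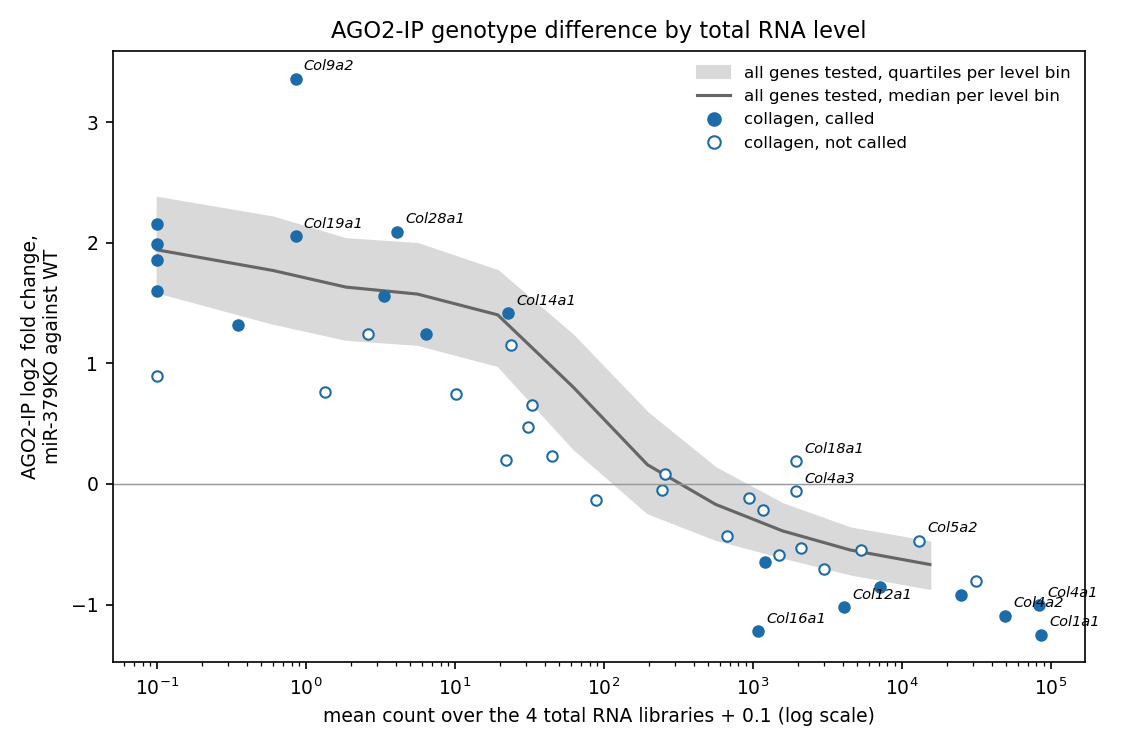
AGO2-IP log2 fold change of miR-379KO against WT over the mean count in total RNA plus 0.1 (log axis), with a point per collagen (filled where called) and the median and quartiles of all tested genes per level bin. Scarce collagens follow the band of all genes, Col1a1, Col4a1 and Col4a2 lie below its end, and Col16a1 lies below the band at its level.

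Calls in AGO2-IP depended on the libraries. Without miR-379KO B, 5 collagens were called, compared with 14 to 19 without each of the other 3. Over the 4 omissions the change in Col16a1 ranged from −1.49 to −1.01. In Col19a1 it ranged from 1.61 to 2.46, in Col25a1 from 1.56 to 2.03, in Col6a5 from 1.49 to 2.47 and in Col9a1 from 1.64 to 2.47. Col19a1, Col25a1, Col6a5 and Col9a1 did not reach the filter's minimum in both WT AGO2-IP libraries, so a change above 0 was favoured for them in advance. Among the abundant collagens the change in Col1a1 ranged from −1.55 to −1.01, in Col4a1 from −1.37 to −0.78 and in Col4a2 from −1.48 to −0.85, all below 0, and Col1a1 was called in 2 of the 4 (not without WT B or miR-379KO B), Col4a1 and Col4a2 in 1 (without miR-379KO A). Col12a1 was called in 3 and Col5a1 in 0 of the 4. Col1a2, not called with all libraries, ranged from −1.47 to 0.01, the last without WT A, and was called without WT B and without miR-379KO A.

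The next comparison asked whether a collagen changed more in AGO2-IP than in total RNA. No collagen passed in the fit of all 8 libraries with edgeR (0% of 17429 genes called), and 0 passed with DESeq2 or voom. Without adjustment, 4 of the 44 collagens and 15.7% of all genes had a p-value under 0.05. Among them was Col16a1, with a difference of −1.09 ± 0.38 between the log2 changes (SE, edgeR adjusted p-value 0.255), and Col4a2, with −1.13 ± 0.47 (edgeR adjusted p-value 0.28). The others were Col28a1 and Col19a1, with edgeR adjusted p-values of 0.229 and 0.237, for which total RNA gave 16 and 3 counts over all 4 libraries, so no fold is given. Neither passed the filter in total RNA, so a call for them here rests on AGO2-IP counts and cannot show a change beyond total RNA. Differences for Col1a1 and Col4a1 were −1.03 ± 0.54 and −0.99 ± 0.50 (SE, edgeR adjusted p-values 0.36 and 0.341). The fall of the called collagens in AGO2-IP was thus not shown to differ from their change in total RNA in this fit. With a block for each culture, chosen after seeing the data, Col1a2, Col16a1, Col19a1 and Col28a1 were called, Col16a1 with a difference of −1.10 ± 0.32 and Col1a2 with −1.54 ± 0.44 (SE, edgeR adjusted p-values 0.0195 and 0.0193). Without WT total RNA B, Col19a1 and Col28a1 were called.

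Collagen RNA was next compared between AGO2-IP and total RNA within a genotype. Beads and library protocol change together in this comparison and cannot be told apart. Relative to effective library size, most collagens were higher in AGO2-IP than in total RNA. Over all gene counts, Rn45s and Lars2 included, the summed collagen share was lower in AGO2-IP, at 0.626% to 0.970% against 1.501% to 2.13%. In WT, 36 of 44 collagens were called at a 2-fold difference, all higher in AGO2-IP, where 43.1% of all genes were called, 35.7% higher. In miR-379KO, 31 collagens were called, all higher, against 61.0% of all genes, 41.6% higher. In either genotype 11 of the called collagens had at most 5 counts in every total RNA library. Such genes passed the filter on AGO2-IP counts alone, so that direction was favoured for them, as for 4052 of the genes called in WT and 4241 in miR-379KO. Among the 17 collagens with over 1000 counts, 11 were called in WT with a median log2 difference of 1.49, whereas 3.75% of the 3653 genes at that level were called higher and their median was −0.45. In miR-379KO 8 of the 17 were called, with a median of 0.73 against −1.09. With the offset for GC content and exon length, 5 of these 17 were called in WT with a median of 0.69 against −0.42 for all genes. Without WT total RNA B, 31 of the 44 collagens were called in WT.

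Among the 17 collagens with over 1000 counts, the 5 with the largest difference in WT were 4 fibrillar genes and the fibril-associated Col12a1. In WT the log2 difference was 2.10 ± 0.40 for Col1a1, 1.96 ± 0.32 for Col12a1, 1.96 ± 0.40 for Col11a1, 1.85 ± 0.32 for Col5a1 and 1.83 ± 0.32 for Col3a1 (SE), with edgeR adjusted p-values of 0.000135 to 0.00103. The fibrillar genes Col1a2 and Col5a3, at 1.74 ± 0.71 and 0.98 ± 0.38, were not called in WT. In miR-379KO the values for Col1a1, Col12a1, Col11a1, Col5a1 and Col3a1 were 1.06 ± 0.38, 1.39 ± 0.32, 1.65 ± 0.40, 1.05 ± 0.31 and 1.42 ± 0.31, each called, with edgeR adjusted p-values of 0.000666 to 0.0205. Col4a1 and Col4a2 differed by 1.22 ± 0.35 and 1.33 ± 0.34 in WT (edgeR adjusted p-values 0.00831 and 0.00364) and by 0.24 ± 0.35 and 0.20 ± 0.33 in miR-379KO (edgeR adjusted p-values 0.564 and 0.612). Of the 6 type IV genes 4 were called in WT and 0 in miR-379KO, and the difference between genotypes is the comparison beyond total RNA given above, which passed for none. The collagens below 2-fold in both genotypes included Col4a3, Col4a4, Col6a1, Col6a2 and Col18a1.

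**Figure D5:**
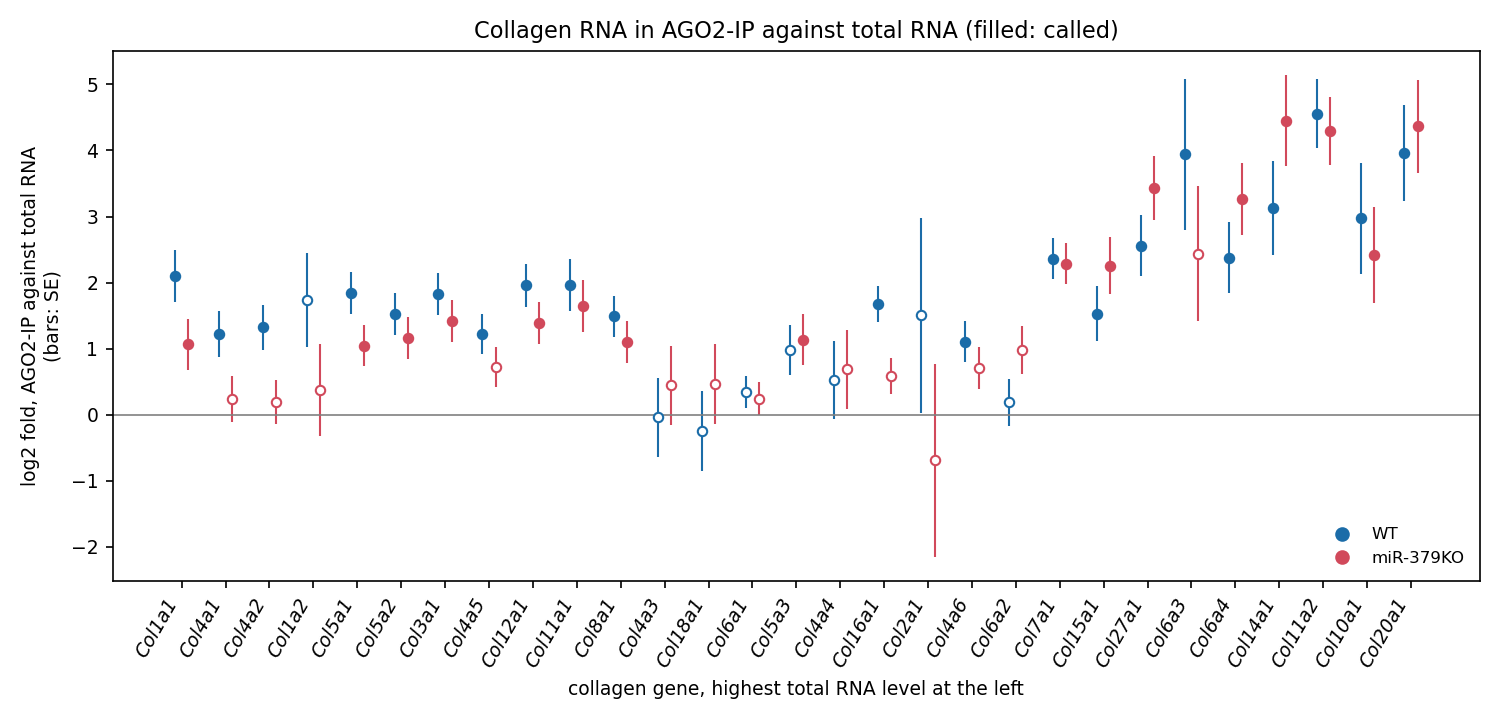
Log2 difference of AGO2-IP against total RNA with its SE for the 29 collagens with a mean of at least 10 counts in total RNA, in WT and miR-379KO (filled where called at 2-fold). Col1a1 and Col5a1 lie near 2 in WT and near 1 in miR-379KO, Col11a1 lies at 1.65 in miR-379KO, and scarce collagens at the right lie higher in both.

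Collagens with at most 5 counts in every total RNA library were Col9a1, Col9a2, Col9a3, Col13a1, Col17a1, Col19a1, Col24a1, Col25a1, Col26a1, Col6a5 and Col6a6. Of these, 6 had 0 counts in all 4 total RNA libraries, namely Col9a1, Col13a1, Col25a1, Col26a1, Col6a5 and Col6a6. Their AGO2-IP counts summed to 7 to 28 over the WT libraries and 15 to 79 over the miR-379KO libraries. Set against a floor of 3 counts over the group, they were 24.4-fold (Col26a1) to 97.5-fold (Col6a6) higher in WT AGO2-IP. In miR-379KO AGO2-IP they were 59.2-fold (Col26a1) to 312-fold (Col25a1) higher on the same floor. These folds leave out counting error in the AGO2-IP sums, and the 7 WT counts of Col26a1 were all in WT A. Of the 4241 genes tested at that level, 95.5% were called in WT and 100% in miR-379KO. All of them passed the filter on AGO2-IP counts alone, so a higher value in AGO2-IP was favoured in advance. Counts of either genotype could meet the filter, and 8 of the 4241 had a change below 0 in WT. Col9a2, called in WT, had 2 counts in WT AGO2-IP against 1 in WT total RNA.

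The chain ratios were compared per kb. The ratio of Col1a1 to Col1a2 was 1.82 in WT A and 8.36 in WT B total RNA, against 1.59 and 2.13 for miR-379KO. In AGO2-IP it was 2.37 in WT A and 9.01 in WT B, against 2.57 and 4.09 for miR-379KO. WT B had the highest ratio in both assays. In total RNA it had the lowest Col1a2 of the 4 libraries, and in AGO2-IP it had the highest Col1a1, with Col1a2 between the miR-379KO values. The proteoglycan Bgn, which is no collagen, was lowest in the same libraries, with 2076 counts in WT B against 10816 or more in the other total RNA libraries, and 370 counts in WT B against 532 or more in the other AGO2-IP libraries. Col6a1 to Col6a2 lay between 4.01 and 11.5 in all 8 libraries, and Col4a5 to Col4a6 between 6.34 and 12.3.

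Collagens with and without a miR-29 seed match were set side by side. In total RNA, 18 of 20 tested collagens with a match and 5 of 9 without one had a change below 0, with medians of −0.37 and −0.08. In AGO2-IP the medians were −0.22 for 25 with a match and 0.89 for 17 without. These groups differ in level, as most abundant collagens hold a match, and the 4 without one among the 17 over 1000 counts were at −0.81 (Col1a2), −1.02 (Col12a1, called), −0.59 (Col6a1) and 0.19 (Col18a1) in AGO2-IP. Of all genes tested in total RNA, 1084 of 1760 with a match and 4983 of 10137 without one had a change below 0. Their medians were −0.07 and 0.01. In AGO2-IP all genes with a match had a median change of −0.07 and those without −0.05. Col11a1, with a miR-379 match, had changes of −0.63 in total RNA and −0.70 in AGO2-IP, neither called.

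The genes that fold, export and cross-link collagen were read from lists. In total RNA 0 of the 50 tested passed in edgeR, 0 had an unadjusted p-value under 0.05, and DESeq2 and voom called 0 of all genes. Their median was −0.05. The most abundant member of each list lay near 0 or within its error, with 0.05 ± 0.33 for Serpinh1, 0.24 ± 0.28 for Sparc, −0.05 ± 0.36 for Loxl2, 0.04 ± 0.34 for Itgb1, 0.48 ± 0.79 for Bgn and −0.11 ± 0.44 for Nid1 (log2 fold change ± SE).

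In AGO2-IP 30 of 51 tested passed in the main edgeR fit, 28 lower and 2 higher, with a median of −0.73. Calls over all genes depended on the fit, as given below, and the counts for these lists are of the main fit only. Over all genes 30.9% passed and 9.52% were lower, and among genes over 1000 total RNA counts 26.4% were lower, with a median of −0.45. Of 18 genes of collagen folding and modification 12 fell, the most P3h3, a prolyl hydroxylase family member (−1.23 ± 0.26), Serpinh1, the collagen chaperone HSP47 (−1.14 ± 0.32), Fkbp10, a prolyl isomerase (−1.08 ± 0.25) and Plod1, a lysyl hydroxylase (−1.07 ± 0.23). Of 12 genes of secretion and propeptide processing 5 fell, among them the C-propeptide protease Bmp1 (−1.28 ± 0.26), the collagen-binding Sparc (−1.06 ± 0.33), the protease enhancer Pcolce (−0.88 ± 0.25) and the coat protein Sec24d (−0.73 ± 0.24). Of 5 cross-linking enzymes 3 fell, Loxl3, Loxl2 and Loxl1, by 1.39, 0.96 and 0.91 on the log2 scale. Of 8 receptors 4 fell, which were Mrc2, the endocytic collagen receptor (−1.18 ± 0.27), the integrin chains Itga11 (−0.95 ± 0.34) and Itga2 (−0.79 ± 0.24), and the receptor kinase Ddr1 (−0.92 ± 0.28).

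All 4 partners of type IV collagen in basement membranes fell in AGO2-IP, with −1.46 ± 0.30 for agrin (Agrn), −1.42 ± 0.33 for perlecan (Hspg2), −1.20 ± 0.24 for Nid2 and −0.84 ± 0.30 for Nid1. The edgeR adjusted p-values of these 4 ran from 0.00115 to 0.0343. Of 6 fibril-binding proteoglycans 4 were tested and 2 were called higher, Dcn by 1.31 ± 0.39 and Ogn by 0.90 ± 0.27 (edgeR adjusted p-values 0.0138 and 0.0137). Dcn, with 18 and 8 counts in WT AGO2-IP, was tested through its miR-379KO counts. None of the 53 was called for a change beyond that in total RNA (edgeR), and 27 had an unadjusted p-value under 0.05, 26 of them lower, against 15.7% of all genes and against 1295 lower among the 3653 genes over 1000 total RNA counts.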

How the data were processed

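Gene counts of 8 libraries were used as the authors deposited them, whole reads per gene without normalization. By the authors' account a stranded mRNA kit served for total RNA and small RNA sequencing for AGO2-IP. The paper gives adapter ligation without size selection for its libraries of ligated RNA. Reads were aligned with TopHat (Bowtie2 2.1.0.1 in the submitters' processing notes) to mm10, and reverse-stranded reads were counted on RefSeq genes with HTSeq 0.6.0. Entries for unassigned reads stayed out of all tests.

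Counts were fitted in edgeR 4.0.16 (R 4.3.3) with TMM factors, filterByExpr at a minimum count of 10 and the robust quasi-likelihood F test, with Benjamini-Hochberg adjustment over all genes tested and calls under 0.05. Genotypes were compared within an assay on 4 libraries, and the other comparisons were fitted on all 8. CPM were scaled within each assay and are not compared between assays. DESeq2 1.42.0, voom in limma 3.58.1, other scaling, filters, a GC and exon length offset (lowess, span 0.3), a replicate block and omission of each library were alternatives. The fits were tested on simulated counts with a single dispersion for all genes and libraries, a setting that these libraries do not share. Replicate pairs differed by more than sampling noise (chi-square per degree of freedom 3.51 to 119). P-values measure the spread between these libraries only.

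The RefSeq annotation of GRCm38.p6 gave positions and lengths, with 23628 genes matched by symbol, 724 by synonym and 287 unmatched. The members and lists were chosen with earlier results of these data known. All collagens were accounted for, with values per library for those of at least 10 CPM in total RNA, full statistics for those called (or the 3 smallest p-values where none was), and up to 4 genes per supporting list, by largest change among those called or by highest level. The Col1a1 to Col1a2 ratio, Bgn, Des, Cdh16 and Lrp2 were named after their values were seen.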

Additional observations from a re-analysis of the deposited data

How the results depend on the processing

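In total RNA 0 collagens were called under all alternatives other than the cutoff of the study, which counted 4. In AGO2-IP the count of 19 was 11 with DESeq2, 6 in the fit of all 8 libraries and 1 (Col16a1) with a minimum mean of 50 counts. That minimum tests fewer genes, but the 8 collagens called lower were all above it. Those of the 8 other than Col16a1, Col1a1, Col4a1 and Col4a2 among them, thus lost their call while still tested. The cause of these changes was not tested. The change beyond total RNA gave 0 collagens, but 1 (Col28a1) with the GC and length offset and 1 with this offset and the replicate block. It gave 4 at the cutoff of the study. A block for each culture, chosen after seeing the data, gave 4 (Col1a2, Col16a1, Col19a1 and Col28a1). The calls of Col19a1 and Col28a1 rest on AGO2-IP counts, as given above. The counts of AGO2-IP against total RNA, 36 in WT and 31 in miR-379KO, were 15 and 14 with a minimum mean of 50 counts. Omission of each library gave 0 to 0 collagens in total RNA, 5 to 19 in AGO2-IP, 0 to 2 beyond total RNA, 25 to 36 in WT and 27 to 31 in miR-379KO. The sign changed for Col8a1 and Col12a1 in AGO2-IP against total RNA in miR-379KO, at −0.26 and −0.31 with the GC and length offset and −0.25 and −0.34 with the block as well. Col26a1 has no value in WT without AGO2-IP A, when all its WT counts are 0. Over all genes, the 4173 called in AGO2-IP were 838 with DESeq2, 686 in the fit of all 8 libraries and 274 with a minimum mean of 50 counts. AGO2-IP depth limits the scarce collagens to at most 77 counts per library.

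The letters A and B are shared by all groups. Same-letter libraries of the 2 genotypes correlated at −0.11 in total RNA and 0.04 in AGO2-IP in their deviations from group means across genes. The letters were therefore not taken as pairs between genotypes. Whether a letter marks the same culture in both assays of a genotype was not tested by this, and the main fits did not pair the assays. WT B was the high library for Des in both, with 14442 counts in total RNA and 756 in AGO2-IP. With the letter as a replicate block 0 collagens were called in total RNA, 14 in AGO2-IP, 0 beyond total RNA, 37 in WT and 31 in miR-379KO. The crossed pairing, chosen after seeing the data, gave 0 collagens in total RNA.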

Other observations

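Some scarce collagens stood out in a single total RNA library, chosen after their values were seen and given as values only. Col2a1 had 299 counts in WT A, 506 in WT B, 207 in miR-379KO A and 2763 in miR-379KO B, Col6a3 16 counts in WT A, 10 in WT B, 9 in miR-379KO A and 96 in miR-379KO B and Col10a1 15 counts in WT A, 6 in WT B, 66 in miR-379KO A and 8 in miR-379KO B. Col18a1 had 1028 counts in WT A, 3509 in WT B, 2222 in miR-379KO A and 1036 in miR-379KO B. In AGO2-IP, Col2a1 had 55 counts in WT A, 157 in WT B, 89 in miR-379KO A and 86 in miR-379KO B, Col6a3 24 counts in WT A, 15 in WT B, 21 in miR-379KO A and 32 in miR-379KO B and Col18a1 168 counts in WT A, 200 in WT B, 211 in miR-379KO A and 159 in miR-379KO B.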
